A study of Mus musculus with 9 samples.

Results

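The genes described here encode the proteins that copy DNA and the enzymes that supply its deoxynucleotides. They are 48 named genes that load, activate and run the replication machinery, and they were followed in pneumospheres, which are spheres grown in suspension from dissociated embryonic mouse lung. All 48 were found among the 27179 gene IDs of the count table, and all 48 were among the 14940 genes with enough counts to test. The lungs came from C57/B6 embryos at embryonic day 11.5, and the groups are day 3, day 7 and day 10 of culture with 3 libraries each. All groups share the strain, the age and the medium, which held basic FGF, EGF and heparin, and all were grown at 10% CO2 and 5% O2. Cells were dissociated with trypsin, left briefly on plastic so that mesenchyme would attach and be depleted, and split on days 3 and 7. The labels do not state whether libraries of the same day are separate cultures, and p-values therefore measure only the spread between these libraries, which may be technical.

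Library totals ran from 20716878 to 30466712 counts, and each of the 48 genes had between 50 and 7152 counts in every library. Levels are CPM, the counts scaled to a common library size with TMM factors, and changes are log2 differences of the later day minus the earlier one. Lung epithelium markers were scarce: a list of 12 summed to 2.79 to 4.76 CPM on day 3, 0.039 to 0.7 CPM on day 7 and 0.106 to 0.36 CPM on day 10, and Nkx2-1, Foxa1 and Shh had no count in any library. A list of 10 mesenchyme markers summed to 14618 to 16357 CPM on day 3, 28253 to 33821 CPM on day 7 and 43376 to 48889 CPM on day 10. Of these, 10 of 10 were called higher on day 10 than on day 3, as were 29.5% of all tested genes. Erythroid markers, 13 genes, summed to 1092 to 1288 CPM on day 3, 12.2 to 17.7 CPM on day 7 and 6.96 to 21.5 CPM on day 10, and neural markers to 155 to 205 CPM, 26.1 to 33.7 CPM and 16.4 to 20.4 CPM on the same days. Endothelial markers summed to 177 to 207 CPM, 245 to 337 CPM and 126 to 136 CPM, but the genes of this list differed in direction. From day 3 to day 7 the mean of Emcn went from 111 to 185 CPM and that of Kdr from 59.2 to 91.8 CPM. Erg went from 7.42 to 2.02 CPM and Tek from 6.69 to 3.19 CPM, while Pecam1 and Cdh5 stayed near their day 3 means. Leukocyte markers summed to 5.64 to 7.8 CPM, 3.16 to 5.78 CPM and 2.4 to 5.01 CPM on days 3, 7 and 10. The part of these cell types in the levels of the replication genes was not tested. In whole spheres, fewer cells that replicate and less of these RNAs per cell cannot be told apart.

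Replication starts where the origin recognition complex sits on DNA. Cdc6 and Cdt1 load the ring of Mcm2 to Mcm7 there in G1, and Cdc45 and the GINS complex turn that ring into a working helicase in S phase. Primase with polymerase alpha lays down primers, polymerases delta and epsilon extend them on the sliding clamp PCNA, and Fen1 and Lig1 join the lagging strand. Ribonucleotide reductase, thymidylate synthase and thymidine kinase provide the building blocks. Transcription of many of these genes in cycling cells is driven by E2F factors at the passage into S phase.

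The log2 change from day 3 to day 10 was negative in all 48 genes, and all but 3 were called lower. By edgeR's quasi-likelihood test with Benjamini-Hochberg adjustment over all 14940 genes, 45 of 48 were called lower on day 10 than on day 3, where 27.2% of all tested genes were called lower. None of the 48 was called higher (29.5% of all tested genes were), and 0 were higher at an unadjusted p under 0.05 in edgeR or by DESeq2. Of the 45, 23 fell by at least 2-fold, which 9.1% of all tested genes did. The log2 changes of the 48 lay between -1.82 and -0.10 with a median of -0.99, while the median over all tested genes was 0. In 47 of the 48 every day 10 library was below every day 3 library, against 31.9% of all tested genes, and in 0 was every day 10 library higher (32.5%). The exceptions among the calls were Orc3, Orc4 and Pold2.

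**Figure D1:**
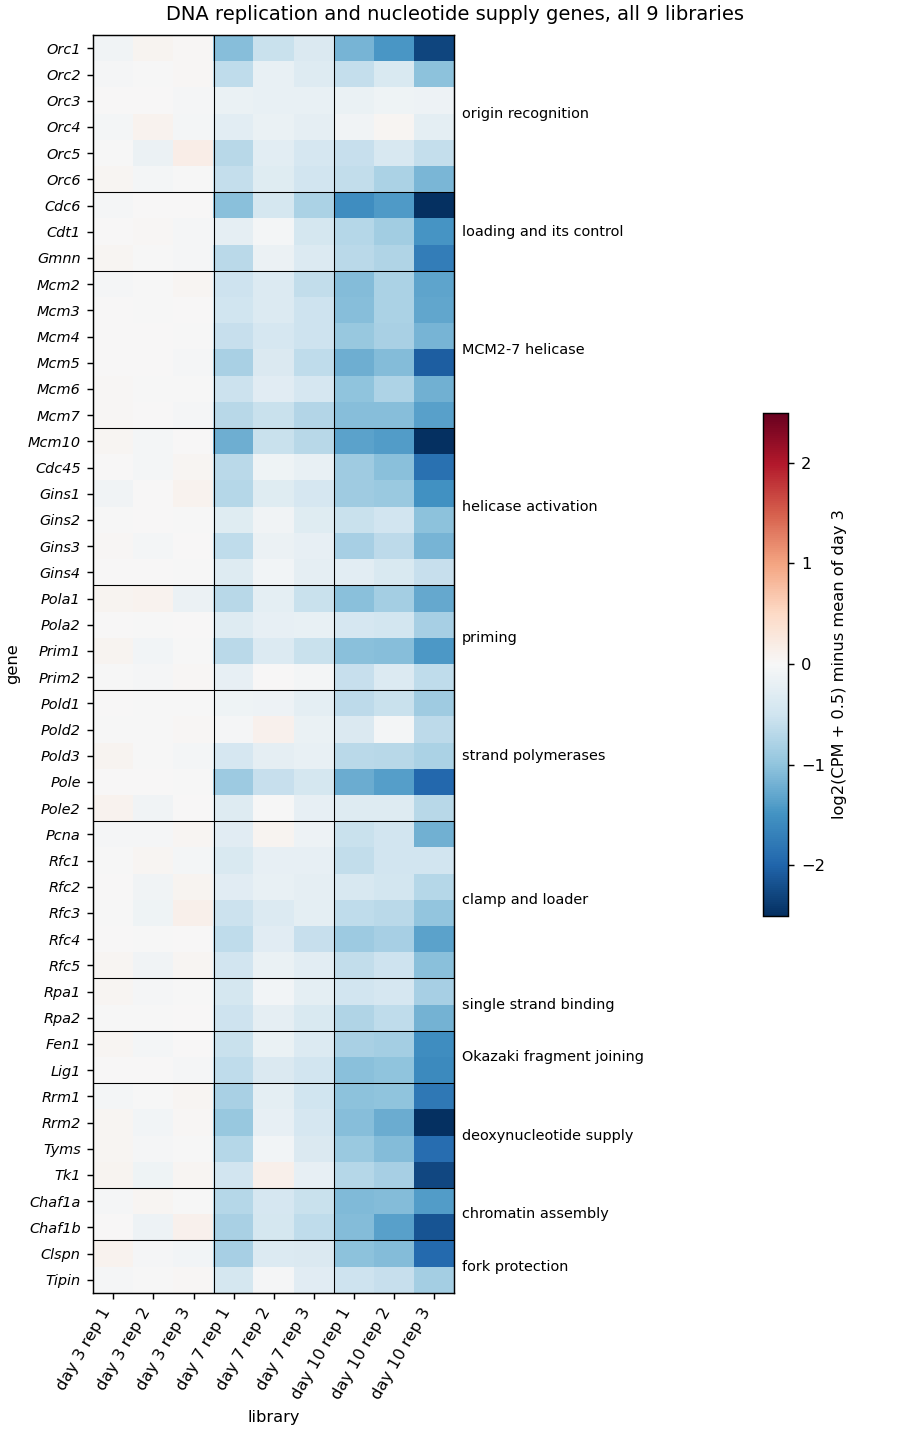
Level of each of the 48 genes in the 9 libraries, as the log2 of CPM + 0.5 minus the gene's mean on day 3, with genes down the page by role and libraries across it by day. Colour deepens from day 3 to day 10 in nearly every gene, day 10 replicate 3 is the lowest day 10 library in 46 of 48, and Orc3 and Orc4 stay pale.

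Summed over the 48 genes, the level was 4119 to 4182 CPM in the day 3 libraries. It was 2819, 3472 and 3125 CPM in the day 7 libraries and 2317, 2430 and 1746 CPM in the day 10 libraries. Replication and nucleotide transcripts made up 0.412% to 0.418% of scaled counts on day 3, 0.282% to 0.347% on day 7 and 0.175% to 0.243% on day 10. The groups did not overlap in this sum, and the day 10 library with the lowest sum was replicate 3.

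Stretches of promoter are shown for 6 of the genes that hold an E2F-type octamer before their start: Cdc6 and Orc1, which had the largest falls among them, Mcm5, Mcm6 and Pola1, which also fell, and Orc3, which was not called between day 10 and day 3. RefSeq windows (build GRCm38.p6) of 300 bases, 250 before and 50 after each start, were available for 39 of the 48 genes. They were searched on both strands for the octamers TTTCCCGC, TTTGGCGC, TTTCGCGC and TTTGCCGC, which are forms of the E2F site. Each stretch lies upstream of a transcript start as the RefSeq window places it. In Cdc6, Orc1, Mcm5, Orc3 and Pola1 that start is inside the annotated gene span. The bases are written 5′ to 3′ on the gene's strand, with the octamers or their reverse complements in capitals.
Cdc6: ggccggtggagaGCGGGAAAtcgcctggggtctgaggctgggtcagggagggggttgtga
Orc1: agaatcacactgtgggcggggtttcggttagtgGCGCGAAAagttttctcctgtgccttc
Mcm5: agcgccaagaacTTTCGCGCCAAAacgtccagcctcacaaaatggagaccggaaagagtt
Mcm6: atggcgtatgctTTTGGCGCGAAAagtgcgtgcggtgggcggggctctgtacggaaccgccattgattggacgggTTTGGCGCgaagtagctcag
Pola1: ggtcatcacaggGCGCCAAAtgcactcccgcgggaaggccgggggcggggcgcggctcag
Orc3: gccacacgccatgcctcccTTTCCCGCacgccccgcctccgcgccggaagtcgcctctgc
The Cdc6 stretch is chr11:98908001-98908060 (plus strand), from 150 to 91 bases before the start. That of Orc1 is chr4:108579394-108579453 (plus strand), from 60 to 1 bases before it. In Mcm5, chr8:75109344-75109403 (plus strand), 165 to 106 bases before the start, octamers of opposite strands overlap, as the first pair does in Mcm6, chr1:128359733-128359827 (minus strand), 122 to 28 bases before it. Pola1 is shown at chrX:93632246-93632305 (minus strand), 150 to 91 bases before the start, and Orc3 at chr4:34614943-34615002 (minus strand), 60 to 1 bases before it.

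At least 1 octamer was found in 16 of the 39 genes with a window (41.0%), against 519 of 11268 tested genes (4.61%) and 704 of all 27025 genes in the promoter table (2.6%). Among the 52 related replication genes described below, 5 of 45 with a window held one (11.1%). TTTCCCGC occurred 8 times in the windows of the 48 genes, TTTGGCGC 7 times, TTTCGCGC 7 times and TTTGCCGC 0 times. The 16 genes with an octamer had a median log2 change of -1.02 between day 10 and day 3 with 15 called lower, and the 23 without had a median of -1.03 with 21 called lower. The 9 genes without a window had a median of -0.68, and all 9 were called lower. Orc3 holds an octamer and had a log2 change of -0.13, and Mcm10 holds none in its window and had a change of -1.74. A match of letters is a description and does not show a site in use.

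Origin recognition held both a steep fall, in Orc1, and the genes that changed least, Orc3 and Orc4. The complex is the platform on which the helicase is loaded. Of its 6 genes, 4 were called lower on day 10 than on day 3 (median log2 change of the 6 -0.60). Orc1, a subunit that human cells degrade in S phase (Entrez 18392, chr4:108575705-108616030), had 9.91, 11.1 and 10.8 CPM on day 3, 4.77, 7.0 and 8.16 CPM on day 7 and 4.46, 3.56 and 1.76 CPM on day 10. Its 3 days did not overlap, and the day 10 libraries lay between 1.76 and 4.46 CPM. The log2 change of day 10 against day 3 was -1.71 (SE 0.30, adjusted p = 0.000932). Orc6 fell by 0.84 (adjusted p = 0.000302), Orc2 by 0.66 (adjusted p = 0.00593) and Orc5 by 0.54 (adjusted p = 0.00468).

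Orc3 and Orc4, subunits of the core ring, kept most of their level. Orc3 (Entrez 50793) had 89.4, 89.5 and 86.5 CPM on day 3, 79.0, 77.7 and 78.1 CPM on day 7 and 79.2, 82.1 and 80.9 CPM on day 10. Its day 10 libraries were all below those of day 3 and all above those of day 7, and libraries that do not overlap with the later day higher held for 13.4% of all tested genes between day 10 and day 7. Orc3 was called lower on day 7 than on day 3 (log2 change -0.18, SE 0.06, adjusted p = 0.028), a call that ended in 8 of 19 alternatives (adjusted p up to 0.097 without day 3 replicate 1). For day 10 against day 3 it had a change of -0.13 (SE 0.06, adjusted p = 0.0661). That last value passes with upper-quartile factors (adjusted p = 0.0308) and with library size alone (adjusted p = 0.018), range over alternatives 0.018 to 0.208. Orc4 had 49.6, 54.4 and 49.3 CPM on day 3, 42.2, 45.6 and 43.6 CPM on day 7 and 47.7, 52.7 and 43.0 CPM on day 10, so its day 10 libraries overlapped those of both other days. Its change of day 10 against day 3 was -0.10 (SE 0.09, adjusted p = 0.371), and 0.02 without day 3 replicate 2 and day 10 replicate 3.

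Per kilobase of transcript the order of the 6 genes also shifted. On day 3, Orc6 led with 55.9 ± 2.16 CPM per kb (SD, n = 3), before Orc3 with 38.5 ± 0.753, Orc2 with 14.8 ± 0.354, Orc5 with 14.3 ± 1.52, Orc4 with 12.6 ± 0.701 and Orc1 with 3.52 ± 0.203 CPM per kb. Orc2 and Orc5 lay within their spread of each other. On day 10, Orc3 with 35.1 ± 0.651 and Orc6 with 31.2 ± 5.63 CPM per kb were within their spread, as were Orc4, Orc5 and Orc2 with 11.8 ± 1.19, 9.87 ± 0.772 and 9.37 ± 2.07 CPM per kb. Orc1 was lowest of the 48 genes per kilobase on both days, with 1.08 ± 0.456 CPM per kb on day 10. The ratio of Orc1 to Orc4 per kilobase was 0.280 ± 0.0136 on day 3, 0.204 ± 0.0499 on day 7 and 0.0909 ± 0.0354 on day 10.

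**Figure D2:**
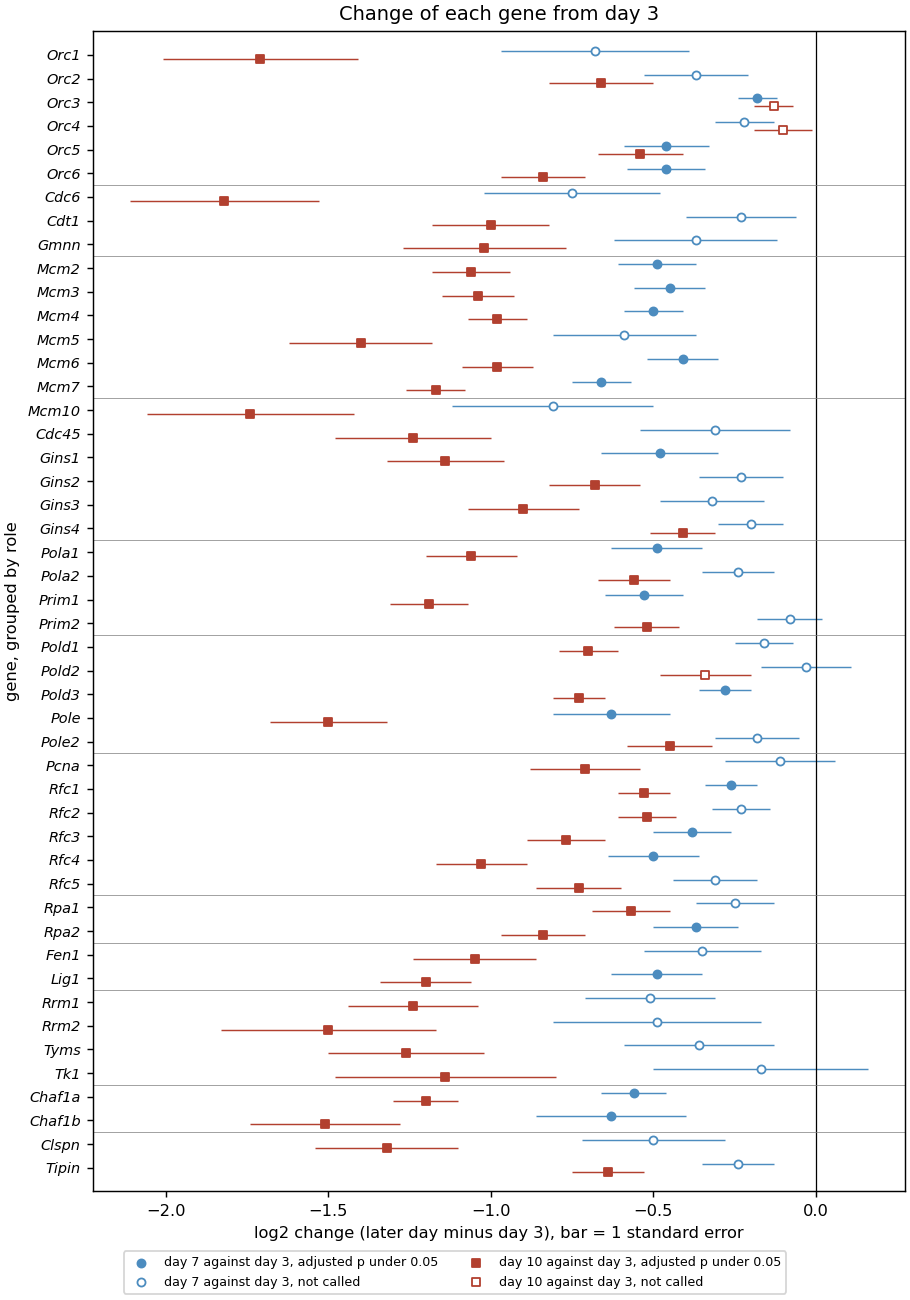
Log2 change of each of the 48 genes against day 3, with genes down the page by role, circles for day 7, squares for day 10, filled marks for an adjusted p under 0.05 and bars of 1 standard error. All squares lie left of 0, from -1.82 for Cdc6 to -0.10 for Orc4, and the open squares are Orc3, Orc4 and Pold2.

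All 3 genes of helicase loading and its control fell between day 3 and day 10, Cdc6 and Gmnn by at least 2-fold. Cdc6, the loading ATPase (Entrez 23834, chr11:98907709-98923942), had 48.9, 50.1 and 49.9 CPM on day 3, 23.9, 36.3 and 28.4 CPM on day 7 and 16.7, 18.3 and 7.45 CPM on day 10. The 3 days did not overlap, and day 10 replicate 3 had less than any other library. Its log2 change of -1.82 for day 10 against day 3 was the largest of the 48 (SE 0.29, adjusted p = 0.000517), and it was also the 1 gene of 48 that was called lower by at least 2-fold on day 10 than on day 7, as 1.49% of all tested genes did (log2 change -1.07, SE 0.28, adjusted p = 0.0494, range over alternatives 0.00189 to 0.179). That last call ended in 10 of 19 alternatives, with the highest adjusted p without day 7 replicate 2. Cdt1, which brings the helicase to the origin, had 56.0, 57.3 and 54.4 CPM on day 3, 47.7, 54.1 and 41.2 CPM on day 7 and 33.9, 30.5 and 19.8 CPM on day 10. The days did not overlap, with day 7 replicate 2 just below the day 3 libraries (log2 change of day 10 against day 3 -1.0, SE 0.18, adjusted p = 0.00101). Gmnn encodes geminin, which blocks Cdt1 outside G1, and fell by 1.02 (SE 0.25, adjusted p = 0.00703). The ratio of Cdt1 to Gmnn per kilobase was 1.18 ± 0.0324 on day 3, 1.32 ± 0.259 on day 7 and 1.24 ± 0.189 on day 10, and the ranges of the 3 days overlapped.

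The 6 genes of the Mcm2 to Mcm7 ring moved together. All 6 fell between day 3 and day 10, by 0.98 to 1.40 on the log2 scale (median -1.05). Mcm5 (Entrez 17218, chr8:75109468-75128439) had 199, 197 and 193 CPM on day 3, 111, 152 and 127 CPM on day 7 and 84.1, 92.7 and 47.0 CPM on day 10, a log2 change of day 10 against day 3 of -1.40 (SE 0.22, adjusted p = 0.000514). Mcm4 had the smallest change of the 6, with 250, 250 and 245 CPM on day 3, 167, 186 and 174 CPM on day 7 and 128, 141 and 110 CPM on day 10 (log2 change -0.98, SE 0.09, adjusted p = 1.47e-05). In both genes the 3 days were apart in every library, with day 7 replicate 2 the highest of its day and day 10 replicate 3 the lowest. Mcm7 changed by -1.17 (SE 0.09, adjusted p = 3.82e-06). Per kilobase the ring genes spanned 45.7 ± 1.34 (Mcm2) to 97.1 ± 1.24 CPM per kb (Mcm6) on day 3, and 22.0 ± 4.08 (Mcm2) to 49.1 ± 7.39 CPM per kb (Mcm6) on day 10. Mcm6 was the highest of the 48 genes per kilobase on all 3 days.

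Helicase activation genes split between a steep Mcm10 and a shallow Gins4, and all 6 fell (median log2 change -1.02). Mcm10, which helps the activated helicase unwind, had 41.7, 39.0 and 40.4 CPM on day 3, 17.1, 27.1 and 24.8 CPM on day 7 and 15.6, 15.1 and 5.75 CPM on day 10. No libraries of different days overlapped, and the log2 change of day 10 against day 3 was -1.74 (SE 0.32, adjusted p = 0.00134). Gins4, a subunit of the GINS complex, had 34.2, 34.2 and 33.7 CPM on day 3, 27.3, 32.4 and 29.1 CPM on day 7 and 28.2, 26.0 and 22.8 CPM on day 10, with day 7 and day 10 overlapping (-0.41, SE 0.10, adjusted p = 0.00497). Cdc45, the helicase partner of GINS and the ring, fell by 1.24 (adjusted p = 0.00168). Gins1, Gins3 and Gins2 fell by 1.14, 0.90 and 0.68. Of the Gins2 transcript 70.7% overlaps Gse1, and the sources used here do not say whether counting used strand, so reads of the pair cannot be told apart.

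**Figure D3:**
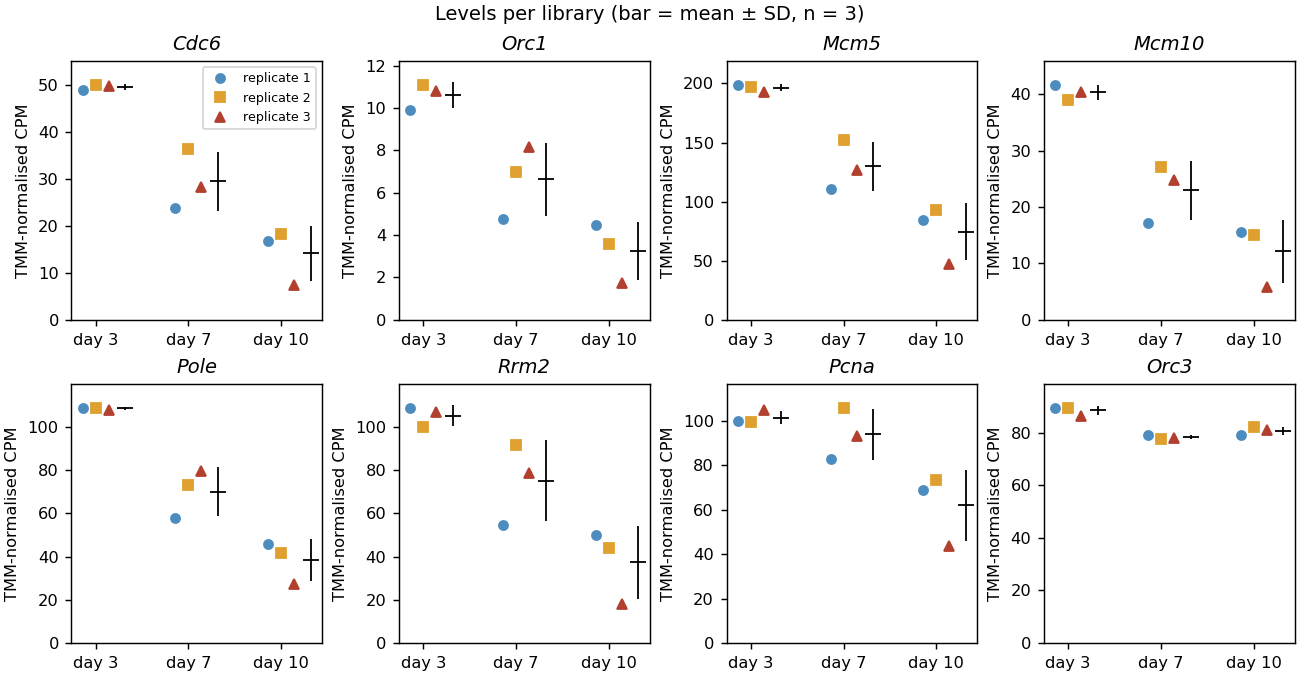
TMM-normalised CPM of 8 genes in each library by day, with 1 symbol per replicate number and bars of mean ± SD (n = 3). Cdc6, Orc1, Mcm5, Mcm10, Pole and Rrm2 have no overlap between days 3 and 10, Pcna has overlapping days 3 and 7, and Orc3 stays between 77.7 and 89.5 CPM.

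Priming genes, the polymerase alpha and primase subunits, all fell (4 of 4, median -0.81). Prim1, the catalytic primase subunit, had 60.4, 55.1 and 57.5 CPM on day 3, 35.8, 45.3 and 39.0 CPM on day 7 and 27.8, 27.4 and 20.9 CPM on day 10 (log2 change of day 10 against day 3 -1.19, SE 0.12, adjusted p = 3.19e-05). Prim2, its partner, had 36.9, 36.2 and 38.0 CPM on day 3, 32.1, 37.2 and 35.9 CPM on day 7 and 24.6, 29.2 and 23.6 CPM on day 10 (-0.52, SE 0.10, adjusted p = 0.00119). The days of Prim1 did not overlap, whereas day 7 of Prim2 overlapped day 3. The ratio of Prim1 to Prim2 per kilobase was 1.94 ± 0.0876 on day 3, 1.42 ± 0.0867 on day 7 and 1.23 ± 0.163 on day 10. The catalytic polymerase alpha gene Pola1 fell by 1.06 (adjusted p = 0.000145) and its accessory Pola2 by 0.56 (adjusted p = 0.00131).

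Among the strand polymerases, 4 of 5 genes were called lower on day 10 than on day 3 (median of the 5 -0.70). Pole, the catalytic subunit of the leading strand polymerase epsilon, had 109, 109 and 108 CPM on day 3, 57.7, 73.1 and 79.6 CPM on day 7 and 46.0, 41.7 and 27.4 CPM on day 10. The 3 days were apart, with a log2 change of day 10 against day 3 of -1.50 (SE 0.18, adjusted p = 0.000105). Its second subunit gene Pole2 fell by 0.45 (adjusted p = 0.0128, and 0.0507 without day 3 replicate 1, range over alternatives 0.00483 to 0.0507). Pold1 and Pold3, subunits of polymerase delta, fell by 0.70 (adjusted p = 9.21e-05) and 0.73 (adjusted p = 4.69e-05). Pold2, the delta subunit that joins the others, had 45.7, 45.6 and 47.2 CPM on day 3, 45.2, 49.6 and 41.2 CPM on day 7 and 35.9, 44.6 and 29.2 CPM on day 10. Every day 10 library was below every day 3 library, replicate 2 only just, and the change was -0.34 (SE 0.14, adjusted p = 0.0568). Without day 10 replicate 2, the highest of its day, Pold2 was called lower (adjusted p = 0.0048), as it was with upper-quartile factors, with library size alone and by DESeq2 (range over alternatives 0.0048 to 0.214).

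All 6 genes of the sliding clamp and its loader fell, with a median of -0.72. Pcna, the clamp, had 99.9, 99.7 and 105 CPM on day 3, 83.0, 106 and 93.3 CPM on day 7 and 68.9, 73.2 and 43.8 CPM on day 10. Day 7 replicate 2 was above every day 3 library, and all day 10 libraries were below both other days (log2 change of day 10 against day 3 -0.71, SE 0.17, adjusted p = 0.0058). Rfc4, a loader subunit, had 35.8, 35.2 and 35.8 CPM on day 3, 22.9, 29.2 and 23.6 CPM on day 7 and 18.8, 19.7 and 13.7 CPM on day 10 (-1.03, SE 0.14, adjusted p = 0.000172). Rfc2, with the smallest change of the 6, had 69.1, 65.0 and 72.3 CPM on day 3, 56.6, 60.2 and 58.8 CPM on day 7 and 51.9, 50 and 42.0 CPM on day 10 (-0.52, SE 0.09, adjusted p = 0.000647). Both loader genes were apart between all days. Rfc1, Rfc3 and Rfc5 fell by 0.53, 0.77 and 0.73. Per kilobase, Pcna had 40.8 ± 10.5 CPM per kb on day 10, within its spread of Mcm4 with 35.2 ± 4.32 and Orc3 with 35.1 ± 0.651 CPM per kb, and the pseudogene copies of Pcna were not analysed here.

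Single strand binding and Okazaki fragment genes also fell, 2 of 2 each. Rpa2, the middle subunit of the single strand binding complex, had 62.2, 62.2 and 63.0 CPM on day 3, 43.7, 53.3 and 48.1 CPM on day 7 and 36.9, 40.2 and 27.3 CPM on day 10 (log2 change of day 10 against day 3 -0.84, SE 0.13, adjusted p = 0.000389). Rpa1, the large subunit, had 107, 101 and 102 CPM on day 3, 75.8, 97.9 and 86.9 CPM on day 7 and 73.7, 77.6 and 57.8 CPM on day 10, with day 7 and day 10 overlapping (-0.57, SE 0.12, adjusted p = 0.00254). Days 3 and 10 did not overlap in either gene. Lig1, the ligase that seals Okazaki fragments, had 160, 160 and 154 CPM on day 3, 101, 123 and 113 CPM on day 7 and 76.4, 78.8 and 52 CPM on day 10 (-1.20, SE 0.14, adjusted p = 8.04e-05). Fen1, the flap nuclease, had 62.9, 58.3 and 60.8 CPM on day 3, 41.0, 54.1 and 47.5 CPM on day 7 and 34.4, 33.6 and 20.2 CPM on day 10 (-1.05, SE 0.19, adjusted p = 0.00104). Of the Fen1 transcript 83.8% overlaps other genes, among them the antisense Gm10143, so its reads cannot be told apart from theirs. Shorter overlaps, 5.76% to 24.0% of the transcript, hold for Orc1, Orc2, Orc4, Mcm7, Pole2, Rfc2, Rfc4, Rfc5, Lig1 and Tk1.

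Deoxynucleotide supply fell by more than 2-fold in all 4 genes (median -1.25). Rrm2, the S phase subunit of ribonucleotide reductase (Entrez 20135, chr12:24708254-24714146), had 109, 100 and 107 CPM on day 3, 54.7, 91.8 and 78.8 CPM on day 7 and 50.1, 44.0 and 18.0 CPM on day 10. The days were apart, with a log2 change of day 10 against day 3 of -1.50 (SE 0.33, adjusted p = 0.00339). Rrm1, the large subunit, had 274, 282 and 292 CPM on day 3, 161, 237 and 199 CPM on day 7 and 139, 140 and 81.5 CPM on day 10 (-1.24, SE 0.20, adjusted p = 0.000676). Thymidylate synthase, Tyms, makes dTMP from dUMP, and it had 73.7, 70.2 and 70.5 CPM on day 3, 43.5, 67.8 and 55.7 CPM on day 7 and 37.5, 33.5 and 18.7 CPM on day 10 (-1.26, SE 0.24, adjusted p = 0.00152). Its processed copy Tyms-ps had 88 to 317 counts per library, 16.4% to 18.2% of the Tyms count, so the Tyms values depend on how shared reads were split. Tk1, the cytosolic thymidine kinase, had 68.1, 60.3 and 67.1 CPM on day 3, 46.4, 70.7 and 56.6 CPM on day 7 and 39.4, 36.4 and 13 CPM on day 10. Its day 7 libraries spread across the day 3 range, and day 10 lay below both (-1.14, SE 0.34, adjusted p = 0.0163, and 0.0545 without the filter on low counts, range over alternatives 0.00193 to 0.0545). Tk1 had the largest coefficient of variation of the 48 within day 10, 48.9%.

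Of the counterparts of these enzymes that serve cells outside S phase, Rrm2b and Dguok were called higher on day 10 than on day 3. Rrm2b, the reductase subunit used in resting cells and after DNA damage, had 10.4, 10.5 and 11 CPM on day 3, 13.8, 13.2 and 11.4 CPM on day 7 and 13, 14.9 and 17.5 CPM on day 10. Its day 10 libraries were all above those of day 3, and it was called higher (log2 change 0.51, SE 0.13, adjusted p = 0.00707, and 0.0556 without day 3 replicate 2 and day 10 replicate 3), and 5.7% of its transcript overlaps an antisense gene. Per kilobase, the ratio of Rrm2 to Rrm2b was 20.6 ± 1.02 on day 3, 12.4 ± 3.56 on day 7 and 5.43 ± 3.00 on day 10. Dguok, the mitochondrial deoxyguanosine kinase, had 20.4, 18.3 and 19.3 CPM on day 3, 24.2, 23.2 and 25.7 CPM on day 7 and 25.6, 28.4 and 28.4 CPM on day 10 (0.51, SE 0.09, adjusted p = 0.000642). Tk2, the mitochondrial thymidine kinase, had 21.2, 17.2 and 22.9 CPM on day 3, 21.6, 20.4 and 21.5 CPM on day 7 and 23.3, 24.7 and 24.7 CPM on day 10. It was not called (0.25, SE 0.11, adjusted p = 0.0711, and 0.0339 without day 3 replicate 3). The ratio of Tk1 to Tk2 per kilobase was 5.38 ± 0.491 on day 3, 4.59 ± 1.11 on day 7 and 2.05 ± 1.04 on day 10, when it was 0.877 in replicate 3. Dck, the cytosolic deoxycytidine kinase, had 19.2, 20.6 and 11.6 CPM on day 10 and 41.0, 37.7 and 40.8 CPM on day 3, and fell by 1.22 on the log2 scale (adjusted p = 0.000439). Tk2 and Dck were chosen after their values were seen.

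**Figure D4:**
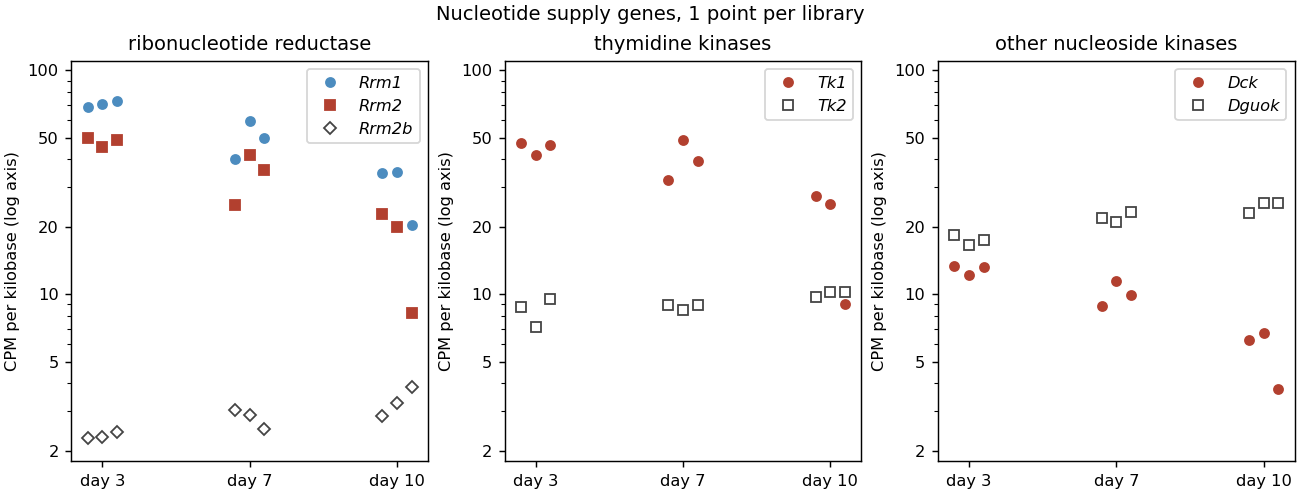
CPM per kilobase of transcript on a log axis for ribonucleotide reductase, thymidine kinase and other nucleoside kinase genes, with 1 point per library in replicate order within each day. Rrm2 and Tk1 are lowest and Rrm2b is highest in day 10 replicate 3, where Tk1 lies below Tk2 (ratio 0.877).

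Chromatin assembly and fork protection genes fell in 4 of 4 cases. Chaf1b and Chaf1a encode subunits of the factor that places histones on new DNA. Chaf1b had 50.6, 46.0 and 54.3 CPM on day 3, 28.3, 36.9 and 32.1 CPM on day 7 and 23.3, 19.3 and 10.8 CPM on day 10 (log2 change of day 10 against day 3 -1.51, SE 0.23, adjusted p = 0.000494). Chaf1a had 123, 130 and 126 CPM on day 3, 76.9, 94.9 and 85.3 CPM on day 7 and 58.3, 59.6 and 47.8 CPM on day 10 (-1.20, SE 0.10, adjusted p = 8.49e-06). Both were apart between all 3 days, and 33.6% of the Chaf1a transcript overlaps Ubxn6. Clspn, or claspin, relays the checkpoint signal at stalled forks. It had 76.2, 70.0 and 68.3 CPM on day 3, 40.2, 56.1 and 55.6 CPM on day 7 and 34.6, 33.3 and 18.3 CPM on day 10 (-1.32, SE 0.22, adjusted p = 0.0008). Tipin, which acts with Timeless at the fork, had 75.7, 75.9 and 78.7 CPM on day 3, 56.6, 74.8 and 63.4 CPM on day 7 and 53.7, 51.4 and 42.5 CPM on day 10 (-0.64, SE 0.11, adjusted p = 0.000883).

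By mean level, the fall ran over both steps in most of the 48 genes. Mean levels were lower on day 7 than on day 3 and lower again on day 10 in 46 of the 48 genes, and day 7 was the lowest day in Orc3 and Orc4. Levels differed among the 3 days in 46 of 48 genes at an adjusted p under 0.05, as in 53.5% of all tested genes. Between day 3 and day 7, 20 of 48 genes were called lower on day 7 (19.0% of all tested genes) and 0 higher (22.8%), with a median log2 change of -0.37, and 0 were higher at an unadjusted p under 0.05 or by DESeq2. None of the 20 fell by 2-fold or more, which 5.29% of all tested genes did. Every day 7 library was below every day 3 library in 43 of 48 genes (29.6% of all tested genes) and above in 0 (30.5%). The 20 held 5 of the 6 ring genes, 3 of 6 in origin recognition, 3 of 6 in the clamp and its loader, and both chromatin assembly genes. None of the deoxynucleotide supply genes was among them, though their median log2 change was -0.43, near the -0.49 of the ring genes. Without day 10 replicate 3, Rrm1 (adjusted p = 0.00524) and Rrm2 (adjusted p = 0.0363) were called lower on day 7 by edgeR. Between day 7 and day 10, 19 of 48 were called lower on day 10 (4.1% of all tested genes) and 0 higher (4.41%), again with 0 higher at an unadjusted p under 0.05 or by DESeq2, with a median of -0.57. Every day 10 library was below every day 7 library in 40 of 48 genes (12.6%). Those 19 again held 5 of the 6 ring genes. Across all tested genes this last comparison gave 659 higher and 612 lower calls, or 437 and 675 with library size alone. The second step differed from the first in 0 of 48 genes at an adjusted p under 0.05, where 8.03% of all tested genes were called (5.96% with a negative and 2.06% with a positive difference of second minus first step), and 0 by DESeq2. At an unadjusted p under 0.05 the step difference held for 3 of 48 genes, and also for 3 by DESeq2. Of these 3, by either tool, 2 had a positive difference and 1 a negative one. Over all 48 genes, called or not, the difference was negative in 39, with a median of -0.16. Pcna changed by -0.11 in the first step and -0.6 in the second, and Orc5 by -0.46 and -0.08. In neither gene was the step difference called by edgeR (adjusted p = 0.38 for Pcna and 0.365 for Orc5). The steps, day 3 to day 7 and day 7 to day 10, also differ in length.

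How many genes were called in each step rested on single libraries. Without day 7 replicate 1 the lower calls on day 7 against day 3 numbered 7, without day 3 replicate 1 they numbered 10, without day 3 replicate 2 they numbered 12, and without day 7 replicate 3 they numbered 13. Without day 10 replicate 3, the lowest of its day in most of the 48 genes, they numbered 36, as they did in a fit of only the 2 groups compared. For day 10 against day 7 the 19 lower calls became 3 without day 7 replicate 2, 10 without day 7 replicate 3 and 12 without day 3 replicate 1. They were 36 by DESeq2 and 2 in a fit of only the 2 groups. The comparison of day 10 with day 3 kept 44 to 46 lower calls whichever library was left out.

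Most of the 48 genes were high or low in the same libraries. On the log2 scale with 0.5 CPM added, the median difference from the day 3 mean was -0.57, -0.22 and -0.36 in day 7 replicates 1, 2 and 3, and -0.78, -0.79 and -1.25 in day 10 replicates 1, 2 and 3. Day 7 replicate 1 was the lowest library of its day in 41 of 48 genes and replicate 2 the highest in 40, and day 10 replicate 3 was the lowest of its day in 46. A list of 23 mitosis genes gave -0.87, -0.41 and -0.49 on day 7 and -1.16, -1.32 and -2.31 on day 10, so day 7 replicate 1 and day 10 replicate 3 were lowest of their day in both lists. All 23 of 23 mitosis genes were called lower on day 10 than on day 3, as were 27.2% of all tested genes. The median coefficient of variation among the 48 genes was 2.89% on day 3, 12% on day 7 and 18.4% on day 10. Leaving out day 10 replicate 3 gave a median change of day 10 against day 3 of -0.79, with 45 genes called lower. Without it and day 3 replicate 2, where 1 unnamed gene ID took 6.79% of counts (0.169% to 0.515% elsewhere), the median was -0.81 and 45 were called.

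**Figure D5:**
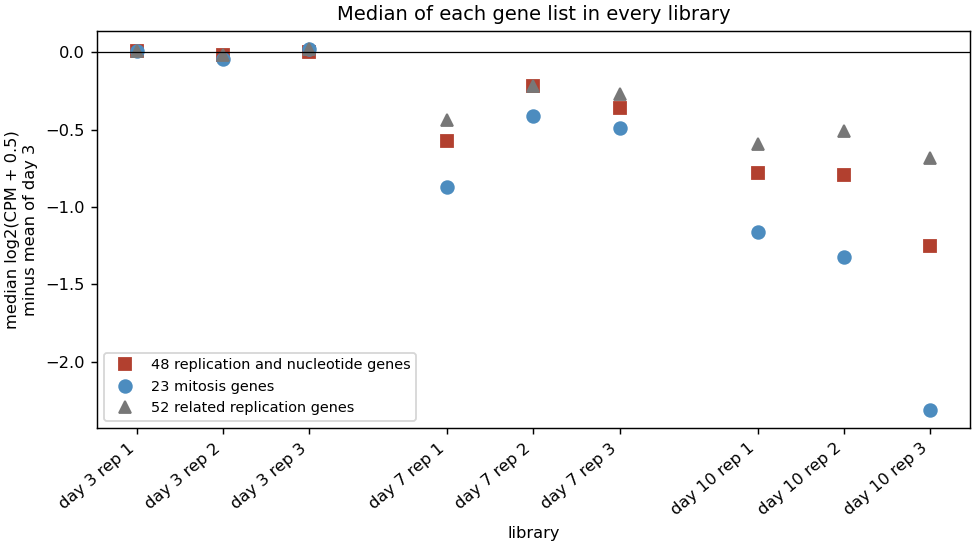
Median over each gene list of the log2 of CPM + 0.5 minus the day 3 mean, in each of the 9 libraries, for the 48 replication and nucleotide genes (squares), 23 mitosis genes (circles) and 52 related replication genes (triangles). In day 10 replicate 3 the 48 genes are at -1.25 and the mitosis genes at -2.31.

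Further genes of replication and nucleotide metabolism, 52 in all, were mostly lower as well. On day 10 against day 3, 43 of 52 were called lower (27.2% of all tested genes) and 4 higher (29.5%), with a median log2 change of -0.50. Origin firing factors (7 of 7) and fork factors (6 of 6) were all called lower. Of the transcript of the fork factor Chtf8, 93.1% overlaps other annotated genes, among them a same-strand entry of the same name. Its reads cannot be told apart from theirs. On day 7 against day 3, 22 were called lower (19.0% of all tested genes) and 3 higher (22.8%), and the lower calls numbered 14 without day 3 replicate 3. On day 10 against day 7, 12 were called lower (4.1% of all tested genes), and these numbered 2 without day 7 replicate 2, 6 without day 7 replicate 3, 19 by DESeq2 and 1 in a fit of only the 2 groups. The largest falls were in Ticrr, which helps to load Cdc45, Dna2, a nuclease and helicase, Shmt1, which supplies one-carbon units for thymidylate, and Top2a, the topoisomerase that untangles copied chromosomes. Ticrr had 22.6, 19.5 and 9.63 CPM on day 10 and 61.6, 64.6 and 60.2 CPM on day 3 (log2 change -1.86, SE 0.28, adjusted p = 0.000375). Dna2 averaged 7.46 CPM on day 10 and 26.0 CPM on day 3 (-1.81, adjusted p = 6.31e-05), Shmt1 averaged 10.2 CPM on day 10 and 35.0 CPM on day 3 (-1.79, adjusted p = 3.1e-05), and Top2a averaged 210 CPM on day 10 and 660 CPM on day 3 (-1.65, adjusted p = 0.00121).

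The 4 genes called higher on day 10 than on day 3 were Pold4, Impdh1, Dguok and Rrm2b. Pold4, the smallest subunit of polymerase delta, had 7.19, 12.2 and 12.7 CPM on day 10 and 6.59, 5.44 and 6.39 CPM on day 3 (log2 change 0.81, SE 0.20, adjusted p = 0.00677, and 0.0644 without day 3 replicate 2 and day 10 replicate 3), and 31.3% of its transcript overlaps another gene. Impdh1, which makes the precursor of guanine nucleotides, had 39.2, 38.9 and 46.4 CPM on day 10 and 25.8, 26.3 and 27.6 CPM on day 3 (0.64, SE 0.09, adjusted p = 0.000144). All 3 day 10 libraries were above all day 3 libraries in both genes.

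Dctd and Cad were the genes of the 52 whose second step differed from the first, and they were chosen after their values were seen. Dctd, the dCMP deaminase, had 28.0, 25.9 and 26.6 CPM on day 3, 16.1, 16.6 and 17.9 CPM on day 7 and 16.1, 18.3 and 18.0 CPM on day 10. Its day 7 and day 10 libraries overlapped, and all were below day 3 (difference of the steps 0.73, SE 0.16, adjusted p = 0.02). Cad, which starts pyrimidine synthesis, had 138, 134 and 140 CPM on day 3, 107, 109 and 111 CPM on day 7 and 122, 119 and 107 CPM on day 10 (0.43, SE 0.11, adjusted p = 0.0477). The call of Dctd ended without day 3 replicate 1 (adjusted p = 0.0634), day 7 replicate 1 (adjusted p = 0.098) or day 7 replicate 2 (adjusted p = 0.0826). That of Cad ended with library size alone (adjusted p = 0.123), without the filter on low counts (adjusted p = 0.0818) and in 8 of the 9 fits without a single library (up to 0.173).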

How the data were processed

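The 9 libraries (3 groups of 3) were prepared from poly(A) RNA with a TruSeq kit, per the labels' protocols. The authors deposited 1 table of whole-number read counts per Entrez gene ID, and per the submitters' processing notes it was made with featureCounts against mm10. Aligner, annotation, strand setting and handling of multiply mapped reads: not given in the sources used here. Names and coordinates came from RefSeq for GRCm38.p6 (25275 of 27179 IDs), and transcript lengths and overlaps from GENCODE M21 on GRCm38, taking the longest principal transcript.

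Tests on counts used edgeR 4.0.16 (R 4.3.3). After filterByExpr (14940 genes kept) and TMM scaling, 1 robust quasi-likelihood model was fitted to the 9 libraries (biological coefficient of variation 0.146). A gene was called at a Benjamini-Hochberg adjusted p under 0.05 over all tested genes. The code was tested on simulated data. A count of 0 allows up to 3 counts, 0.0985 to 0.145 CPM in these libraries, for counting error only. Replicates of a day differed by more than counting noise (chi-square per degree of freedom 8.05 to 126.55).

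The 48 genes and the lists (52 related genes, 23 mitosis genes, and markers of lung epithelium, mesenchyme, erythroid, neural, endothelial and leukocyte cells) were chosen with earlier results of these data known. Values in every library are given for the largest and smallest change of day 10 against day 3 in each role and for genes not called there, and Pcna, Rrm1 and Tyms were added after their values were seen. Of the related genes, the 4 largest falls and rises are named. Alternatives were other scaling (DESeq2 size factors, upper quartile, library size), other filters, DESeq2 1.42.0, only the 2 groups compared, the replicate number as a block, and leaving out libraries. The alternatives for single related genes were added after seeing the data.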

Additional observations from a re-analysis of the deposited data

How the results depend on the processing

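For day 10 against day 3, 44 to 46 of the 48 genes were called lower with 1 library left out, and 0 were called higher in any alternative run. Pole2 lost its call without day 3 replicate 1 and Tk1 without the filter on low counts, and the other 43 of the 45 called genes kept theirs under all alternatives. Counts in single steps moved more. The lower calls for day 7 against day 3 (20) were 36 in a fit of only the 2 groups compared and 7 to 36 with 1 library left out, and those of the 52 related genes (22) were 14 to 31. For day 10 against day 7, the 19 lower calls were 36 by DESeq2, 2 in a fit of only the 2 groups and 3 to 23 with 1 library left out, and the 12 of the related genes were 19, 1 and 2 to 16. The related genes called higher on day 10 than on day 3 (4) were 2 without day 3 replicate 2 and day 10 replicate 3 together. Fits of only the 2 groups or without a library hold fewer samples, and the cause of these shifts was not tested. Among the 3 days, 46 of the 48 genes differed, and 41 to 45 with 1 library left out. Signs turned in 4 uncalled changes: Orc3, day 10 against day 7, was -0.01 with library size alone, Orc4, day 10 against day 3, was 0.02 without day 3 replicate 2 and day 10 replicate 3, Orc5, day 10 against day 7, was 0.02 without day 7 replicate 2 (-0.19 to 0.02 with 1 library left out), and Pold2, day 7 against day 3, was 0.04 without day 7 replicate 3 (-0.10 to 0.04). The cause was not tested. Leaving out the unnamed gene ID that is abundant in day 3 replicate 2 was also run.

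Deviations of libraries with the same replicate number correlated at -0.069 to 0.433, and those with different numbers at -0.356 to 0.221. These ranges overlap and do not settle whether the numbers mark pairs. No label says that a number is a shared culture or litter, so the main model held no replicate block. With the replicate block, 21, 46 and 20 genes were called lower for day 7 against day 3, day 10 against day 3 and day 10 against day 7. Pold2 was called in the second of these (adjusted p = 0.028), and the step difference of Cad was not (adjusted p = 0.0698). The 48 genes had at least 50 counts in every library, and the fewest were in Orc1. How far counting error adds to the spread was not tested.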
